A study of Mus musculus with 7 samples.

Results

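Interferon-stimulated genes and the sensors of foreign nucleic acid that switch interferon on were followed in the left ventricle of aged telomerase-deficient mice. The members are the 49 genes of a named list whose Ensembl identifiers occur in the deposited tables, of 22027 genes in all, and the rule uses no measured value. They fall into 7 sensors and adaptors of RNA or DNA, 3 interferon receptor chains, 5 transcription factors, 23 antiviral effectors, 9 interferon-inducible GTPases and 2 chemokines. Whole left ventricular tissue was sequenced from C57BL/6J mice aged 12 months. In the G3 group, 4 libraries came from telomerase-deficient animals, and in the G3 PGC1aOE group 3 libraries came from animals of that kind with PGC1alpha, the product of Ppargc1a and a coactivator of mitochondrial genes, overexpressed. The series title ties PGC1alpha levels to heart function and lifespan. No telomerase-proficient group is in the labels used here, so both groups carry the telomerase deficiency, and the labels do not say which promoter drives the PGC1alpha transgene or whether libraries come from separate animals. The p-values below therefore measure the spread between these libraries.

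Interferons are secreted proteins that warn cells of infection or of nucleic acid in the wrong compartment. Sensors such as RIG-I and MDA5 bind RNA in the cytosol and signal through the adaptor MAVS, on the outer mitochondrial membrane, to the factors IRF3 and IRF7, which induce type I interferon. Type I interferon acts through its receptor and a complex that holds STAT2 and IRF9 on a DNA element named ISRE, whereas interferon gamma acts through its own receptor on an element named GAS, and the genes so induced restrict viruses, present antigen or attract lymphocytes. In the heart, cardiomyocytes, endothelial cells, fibroblasts and leukocytes can all respond to interferon.

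Total counts per library ran from 10106705 to 16056740, and mitochondrially encoded genes held 24.7% to 42.4% of them. Summed cardiomyocyte markers reached 43300 to 67810 CPM (counts scaled to library size) in every library, so the defining markers of the labelled tissue were present. CPM values also allow for composition between libraries, and values in FPKM are also per length, so only FPKM sets one gene against another. Where values for a group are listed, they follow the order of its library numbers, 1 to 4 for G3 and 1 to 3 for G3 PGC1aOE. Each library's description carries a code of leading letters, the text G2 or G3, and a number, whose meaning is not stated. The letters before that text are C in G3 1 and G3 2, none in G3 3 and P in G3 4. In every G3 PGC1aOE library they are PC, and their part in the values was not tested. Although every title says G3, the code says G2 for 3 libraries (G3 1, G3 3, G3 PGC1aOE 1) and G3 for the other 4, and its number is at most 55 in the former and at least 67 in the latter. Ppargc1a, the gene named as overexpressed, stood at 94.7, 56.8, 118 and 86.7 CPM in G3 and at 103, 43.9 and 58.1 CPM in G3 PGC1aOE. Over all libraries the measured message was thus not higher in G3 PGC1aOE, and the mean log2 CPM differed by -0.43. A 2-sided exact permutation test gave p = 0.314, where the smallest possible p is 0.0286. The libraries coded G2, at 94.7, 118 and 103 CPM, all lay above those coded G3, at 43.9 to 86.7 CPM. Of all tested genes, 11.4% were likewise lower in every library coded G3. Within code numbers below 80 the log2 CPM difference between the labelled groups was 0.26, and within 80 and above it was -0.78. The telomerase gene Tert had 1 count in G3 PGC1aOE 2 and 0 elsewhere. In what follows G3 PGC1aOE means the libraries labelled so.

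Promoter windows give the sequence context of the members, many of which were high or low in the same libraries. RefSeq windows of 300 bases (GRCm38.p6, 250 before and 50 after the annotated start) were found for 37 of the 49 members. An ISRE was searched on both strands as GAAA, any 2 bases and GAAA again. A GAS was searched as TTCNNNGAA, which reads the same on both strands, and matches of either may overlap. The ISRE pattern occurred in 19 of the 37 member genes, 51.4%, against 1079 of 27025 genes with a window, 3.99%. The GAS pattern occurred in 13 of the 37, 35.1%, against 9.55% of all genes. The GTPases stood at the top for the ISRE pattern, found in 7 of 7 genes, and held a GAS pattern in 4 of them (57.1%). For the GAS pattern the receptor chains had the larger share, 2 of 3 genes (66.7%). Effectors held an ISRE pattern in 7 of 15 genes, sensors in 3 of 5, transcription factors in 1 of 5 and receptor chains in 0 of 3. From the effectors, GTPases, transcription factors and chemokines picked by the rule for named members, 5 windows were taken by most ISRE matches and then by smaller p, and are printed with the ISRE pattern in capitals, and that of Mavs, which has neither pattern, is printed for contrast. A match is a string of letters and not evidence of binding, and the windows come from a later build than the mm9 of the counts.
Ifit3, chr19:34583279-34583578, plus strand: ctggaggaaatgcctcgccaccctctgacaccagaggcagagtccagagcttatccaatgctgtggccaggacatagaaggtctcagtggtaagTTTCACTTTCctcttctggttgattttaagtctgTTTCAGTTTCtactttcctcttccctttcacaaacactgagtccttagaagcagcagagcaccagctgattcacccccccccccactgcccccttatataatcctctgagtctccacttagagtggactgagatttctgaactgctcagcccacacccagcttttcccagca
Bst2, chr8:71537423-71537722, minus strand: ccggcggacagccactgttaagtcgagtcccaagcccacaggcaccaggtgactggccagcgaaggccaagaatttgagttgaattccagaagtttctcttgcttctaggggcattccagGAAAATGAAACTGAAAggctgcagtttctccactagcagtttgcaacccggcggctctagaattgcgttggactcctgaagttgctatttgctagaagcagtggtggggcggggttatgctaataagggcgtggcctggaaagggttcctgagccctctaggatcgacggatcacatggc
Gbp2, chr3:142620413-142620712, plus strand: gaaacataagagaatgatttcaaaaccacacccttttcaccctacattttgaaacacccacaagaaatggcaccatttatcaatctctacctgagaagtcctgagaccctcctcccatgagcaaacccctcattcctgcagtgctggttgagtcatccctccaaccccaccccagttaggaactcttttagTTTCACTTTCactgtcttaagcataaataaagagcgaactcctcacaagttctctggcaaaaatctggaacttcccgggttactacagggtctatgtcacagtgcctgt
Gbp5, chr3:142496684-142496983, plus strand: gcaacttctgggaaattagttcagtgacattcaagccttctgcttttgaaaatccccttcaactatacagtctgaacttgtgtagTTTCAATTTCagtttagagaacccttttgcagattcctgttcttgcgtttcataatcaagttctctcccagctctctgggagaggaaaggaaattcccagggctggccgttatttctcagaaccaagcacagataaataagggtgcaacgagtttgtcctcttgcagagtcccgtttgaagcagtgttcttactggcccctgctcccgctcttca
Irgm2, chr11:58214727-58215026, plus strand: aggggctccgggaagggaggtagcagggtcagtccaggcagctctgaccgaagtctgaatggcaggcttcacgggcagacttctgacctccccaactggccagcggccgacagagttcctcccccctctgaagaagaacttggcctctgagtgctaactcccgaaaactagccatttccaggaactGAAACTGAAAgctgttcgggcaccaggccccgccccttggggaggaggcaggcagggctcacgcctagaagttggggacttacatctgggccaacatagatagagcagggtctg
Mavs, chr2:131233813-131234112, plus strand: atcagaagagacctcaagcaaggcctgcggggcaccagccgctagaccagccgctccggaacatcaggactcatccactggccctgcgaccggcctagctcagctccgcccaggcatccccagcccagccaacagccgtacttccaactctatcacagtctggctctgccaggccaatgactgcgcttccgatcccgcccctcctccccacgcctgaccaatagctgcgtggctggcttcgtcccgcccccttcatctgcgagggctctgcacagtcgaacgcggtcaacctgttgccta
The pair of ISRE patterns in Ifit3 began 156 and 122 bases before the start, and that in Bst2 began 130 and 124 bases before it and runs together. Gbp2 and Irgm2 each carried a single pattern, 59 and 64 bases before the start, and Gbp5 carried one 165 bases before it.

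**Figure D1:**
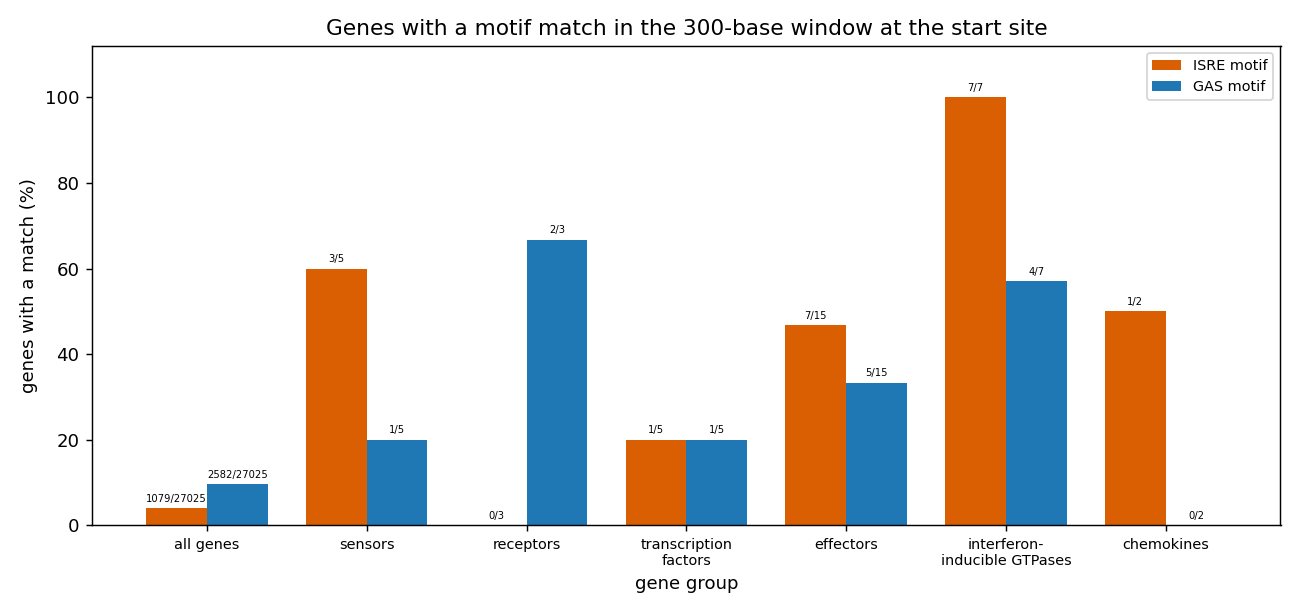
Share of genes (%, vertical axis) with at least 1 ISRE or GAS match in the 300-base window at the start site, for all genes and each role (bars, with the number of genes written above). The GTPases reach 7 of 7 for the ISRE, against 3.99% of all genes.

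Most members were detected in all 7 libraries, over a wide range of levels within each role. Of the 49 members, 39 exceeded 1 FPKM in every library and 3 stayed below 1 FPKM in all, with a median over members of 5.36 FPKM. Ifngr1 was the most abundant at a mean of 64.2 FPKM over the 7 libraries, followed by Ifi27 at 60.2, Bst2 at 32.5 and Irf3 at 25.8 FPKM. Iigp1 at 23.9, Igtp at 23.4, Irf1 at 20.4 and Mavs at 20.2 FPKM came next, and their ranges over libraries overlapped. Mx1 was the lowest, at 0.310 FPKM, in a strain whose Mx1 allele is known to carry a deletion. The interferon genes themselves were at or near the floor: Ifng had 0, 0, 0 and 2 counts in G3 and 0, 2 and 3 in G3 PGC1aOE, and Ifnb1 had at most 1 count in a library. The other 7 interferon genes listed, Ifna1, Ifna2, Ifna4, Ifne, Ifnk, Ifnl2 and Ifnl3, had 0 counts, which allows up to 3 counts or 0.218 to 0.274 CPM in a library, counting error only.

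**Figure D2:**
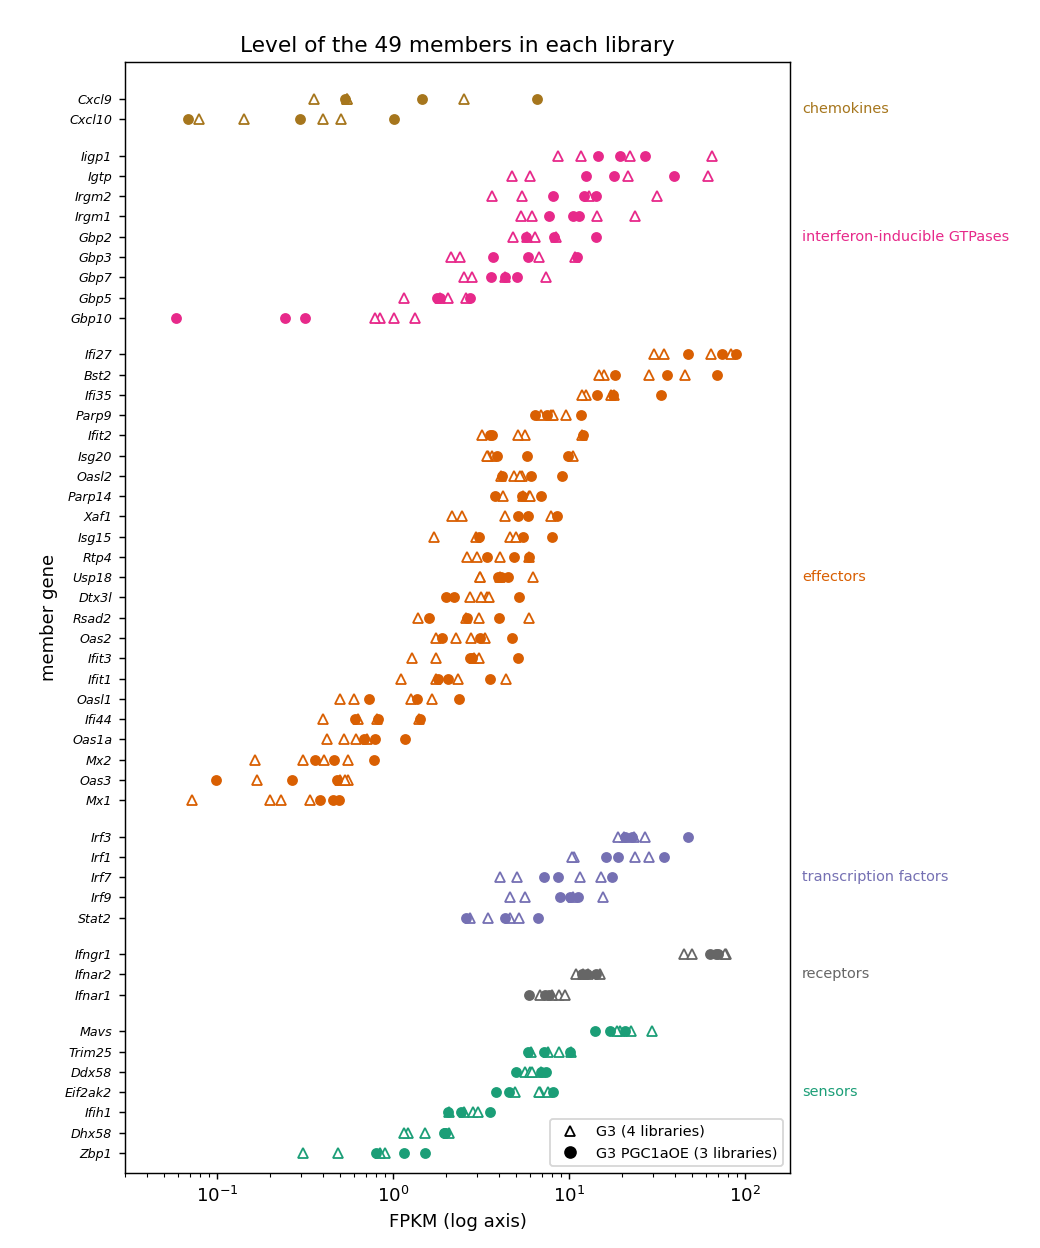
FPKM on a log axis (horizontal) for each of the 49 members (rows, coloured by role), with open triangles for the 4 G3 libraries and filled circles for the 3 G3 PGC1aOE libraries. Ifngr1 and Ifi27 lead, with means of 64.2 and 60.2 FPKM, and Mx1 lies lowest at 0.310 FPKM.

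Between the labelled groups no member differed past the threshold, and most pointed upward by less than the libraries vary. Of the 48 tested members, 0 passed an adjusted p of 0.05 in edgeR's quasi-likelihood test, as did 0 of 12674 genes (0%). The fitted log2 fold change, G3 PGC1aOE minus G3, was above 0 in 39 members and below 0 in 9, whereas 50.9% of all genes were above 0. The median over the tested members was 0.27, against 0.0076 over all tested genes. At an unadjusted p under 0.05, 2 members were higher (Zbp1 and Mx1), where 3.05% of all genes were, and 1 was lower (Gbp10), where 1.27% were. In either direction that is 3 of 48 members beside 4.32% of all genes. The same 3 were the members whose groups did not overlap, beside 4.58% of all genes, and both counts lie near the background. The 95% interval of the fold change included 0 for the other 45, and adjusted p-values of members ran from 0.847 to 0.997.

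**Figure D3:**
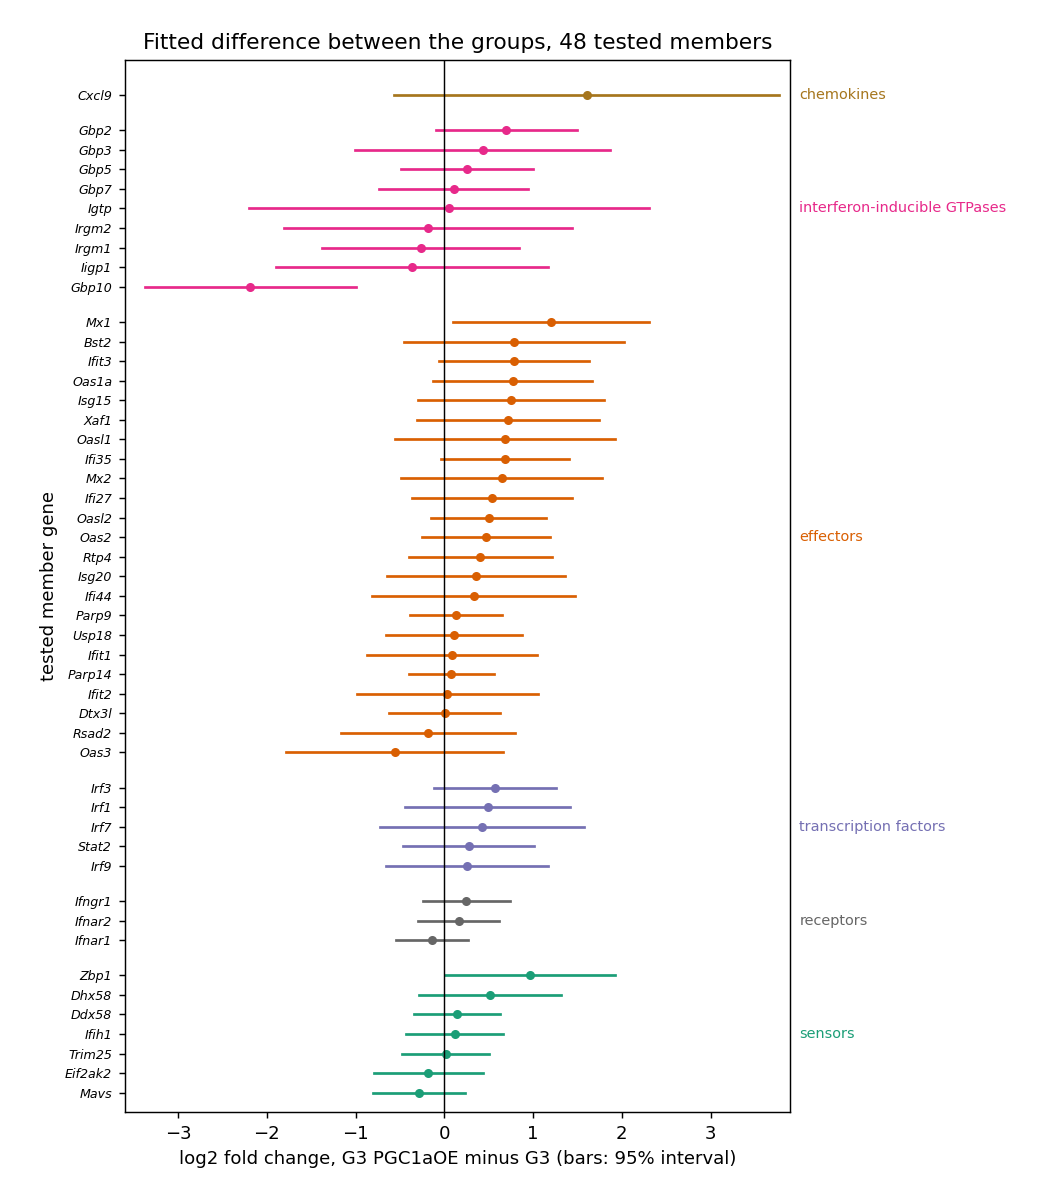
Fitted log2 fold change, G3 PGC1aOE minus G3 (horizontal axis, points), with its 95% interval (bars) for the 48 tested members, coloured by role. The intervals of Zbp1, Mx1 and Gbp10 leave out 0, and those of the other 45 include it.

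The roles differed in how far they leaned. Effectors were higher in 21 and lower in 2 of 23, around a median log2 fold change of 0.47, and all 5 transcription factors were higher, with a median of 0.43. Sensors were higher in 5 of 7 with a median of 0.12, and receptor chains in 2 of 3 with a median of 0.16. The GTPases were split, 5 higher and 4 lower, around a median of 0.05. Without G3 PGC1aOE 2 the median was 0.19 for the effectors, 0.056 for the transcription factors, 0.065 for the receptor chains and 0.086 for all tested members, and without G3 4 it was 0.68 for the GTPases and 0.62 for all. None of these medians has a test here, and the differences between roles were not tested. Markers of several cell types leaned the same way. Fibroblast markers were higher in 7 of 8, at a median of 0.85 on the log2 scale. Of these 8, 4 did not overlap between groups, beside 4.58% of all genes. Endothelial markers were higher in 8 of 9, macrophage and monocyte markers in 11 of 12 and adipocyte markers in 6 of 6 tested. Cardiomyocyte markers were higher in 3 of 8, at a median of -0.056, and granulocyte markers in 3 of 5 tested, at a median of 0.067. The part of all these cell types in the members' values was not tested.

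Among the sensors, Zbp1 and Dhx58 had the largest log2 fold changes above 0, and the adaptor Mavs had the lowest one. Zbp1 (ENSMUSG00000027514) encodes a sensor of Z-form nucleic acid that can trigger necroptosis. It stood at 0.912, 1.63, 0.628 and 1.80 CPM in G3 and at 2.10, 3.35 and 1.91 CPM in G3 PGC1aOE. All 3 G3 PGC1aOE libraries were above all 4 G3 libraries, although G3 4 lay just under the lowest of them and the counts were small, from 7 to 46. The log2 fold change was 0.96 with a standard error of 0.43, and edgeR's adjusted p was 0.847. Dhx58, which encodes LGP2, a helper of MDA5, stood at 1.09, 1.33, 2.06 and 1.20 CPM in G3 and at 1.71, 2.11 and 2.28 CPM in G3 PGC1aOE. The groups overlapped through G3 3. Its log2 fold change was 0.52 (SE 0.36). Mavs stood at 43.6, 48.8, 72.3 and 48.6 CPM in G3 and at 45.4, 37.0 and 49.3 CPM in G3 PGC1aOE, a log2 fold change of -0.28 (SE 0.23). Only G3 3 stood apart, above the rest. Trim25, a ubiquitin ligase that acts on RIG-I, had nearly equal means of 32.9 ± 6.39 CPM (SD, n = 4) and 33.3 ± 4.60 CPM (SD, n = 3), within ranges of 25.7 to 38.7 and 29.1 to 38.2 CPM. The remaining sensors were Ddx58 (RIG-I), Ifih1 (MDA5) and Eif2ak2 (PKR, which halts translation on double-stranded RNA). They were named after their values were seen, and their log2 fold changes lay between -0.18 and 0.15.

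The receptor chains were steady. Ifnar2, a chain of the type I interferon receptor, stood at 18.7, 21.0, 17.5 and 20.2 CPM in G3 and at 16.8, 24.5 and 23.7 CPM in G3 PGC1aOE. G3 PGC1aOE 1 was the lowest of all 7 libraries and the other libraries of its group the highest, so the groups overlapped. Ifngr1, the ligand-binding chain for interferon gamma, stood at 56.2, 53.7, 35.8 and 41.5 CPM in G3 and at 49.6, 58.2 and 58.7 CPM in G3 PGC1aOE. Here G3 3 and G3 4 were low, and the log2 fold change was 0.25 (SE 0.22). Ifnar1, the other chain of the type I receptor and also named after its values were seen, had a log2 fold change of -0.14.

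The transcription factors varied between libraries within each labelled group. Irf1 is a factor induced chiefly by interferon gamma. It stood at 11.0, 28.2, 11.8 and 28.2 CPM in G3 and at 16.4, 42.2 and 25.0 CPM in G3 PGC1aOE. G3 1, G3 3 and G3 PGC1aOE 1, whose code reads G2, were the lowest libraries. The log2 fold change of Irf1 was 0.49 (SE 0.42) with all libraries and 0.062 without G3 PGC1aOE 2. Irf7, the master factor of the type I response and itself interferon-induced, stood at 4.20, 11.5, 5.74 and 18.2 CPM in G3 and at 7.30, 21.3 and 11.5 CPM in G3 PGC1aOE. The same 3 libraries were lowest for Irf7, and the 4.34-fold range within G3 exceeded the fitted difference between groups, a log2 fold change of 0.43 (SE 0.51). Irf3, a factor held inactive in the cytosol until a sensor fires, stood at 24.2, 30.7, 24.3 and 31.6 CPM in G3 and at 26.0, 65.9 and 31.6 CPM in G3 PGC1aOE. A single library, G3 PGC1aOE 2, stood above all others, and the log2 fold change was 0.57 (SE 0.31) with it and 0.056 without it. Stat2 and Irf9, chosen after their values were seen, had log2 fold changes of 0.28 and 0.26.

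The effectors leaned upward in most members, and the low-abundance Mx1 was the one without overlap. Mx1 (ENSMUSG00000000386), a dynamin-like GTPase against viruses, had 5, 10, 2 and 8 counts in G3 and 11, 18 and 18 in G3 PGC1aOE. In CPM these were 0.456, 0.739, 0.179 and 0.601 against 0.854, 1.31 and 1.33, with every G3 PGC1aOE library above every G3 library. The log2 fold change was 1.20 with a standard error of 0.50, and edgeR's adjusted p was 0.847. Ifit3, a partner of IFIT1 in binding viral RNA, stood at 2.83, 4.43, 2.24 and 5.71 CPM in G3 and at 4.42, 9.68 and 5.67 CPM in G3 PGC1aOE. G3 4 overlapped the other group, and G3 2 lay just above that group's lowest library, G3 PGC1aOE 1. The log2 fold change of Ifit3 was 0.79 (SE 0.38) with all libraries and 0.40 without G3 PGC1aOE 2. Ifi35, an interferon-induced leucine zipper protein, stood at 13.4, 18.7, 13.9 and 21.4 CPM in G3 and at 15.1, 41.7 and 24.3 CPM in G3 PGC1aOE. G3 PGC1aOE 2 was again far above the rest, and the log2 fold change was 0.68 (SE 0.33) with that library and 0.22 without it.

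Bst2, Ifi27, Xaf1 and Oasl1 shared their extremes over the libraries, with G3 PGC1aOE 2 highest and G3 1 or G3 3 lowest. Bst2, the tetherin that holds budding virions to the cell surface, stood at 11.1, 19.3, 11.4 and 36.7 CPM in G3 and at 12.5, 57.1 and 32.4 CPM in G3 PGC1aOE. Ifi27, a small membrane protein strongly induced by type I interferon, stood at 23.3, 41.4, 22.1 and 64.1 CPM in G3 and at 30.7, 70.0 and 63.3 CPM in G3 PGC1aOE. In both genes G3 1, G3 3 and G3 PGC1aOE 1 were the lowest 3 libraries, and the groups overlapped over most of their range. Xaf1, an antagonist of the apoptosis inhibitor XIAP, stood at 2.74, 5.32, 3.41 and 11.6 CPM in G3 and at 6.37, 12.7 and 9.50 CPM in G3 PGC1aOE. Oasl1, a member of the oligoadenylate synthetase family that represses translation of Irf7 in mice, stood at 0.547, 1.33, 0.718 and 2.10 CPM in G3 and at 0.776, 3.06 and 1.91 CPM in G3 PGC1aOE. Their log2 fold changes were 0.79 (SE 0.55) for Bst2, 0.54 (SE 0.40) for Ifi27, 0.72 (SE 0.46) for Xaf1 and 0.69 (SE 0.56) for Oasl1. Without G3 PGC1aOE 2 they were 0.19, 0.32, 0.45 and 0.18 in the same order. The other 16 effectors had log2 fold changes from -0.56 to 0.77, with 14 above 0, and edgeR's adjusted p was at least 0.847 for each. Of these 16, 7 shared both extremes and 9 did not, as the map of log2 CPM by library shows. Examples of the 9, named after their values were seen, are Ifit2, Isg20 and Rsad2. Ifit2 was highest in G3 1 and G3 PGC1aOE 1, at 24.7 and 24.3 CPM against 7.27 to 12.3 CPM in the others. Isg20, an exonuclease, and Rsad2, the antiviral enzyme viperin, were highest in G3 3, at 9.42 and 16.6 CPM. Ifit2 lies next to Ifit3 in the annotation, and the 2 genes were highest in different libraries.

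The GTPases varied widely between libraries, with a median SD of log2 CPM over the 7 libraries of 0.96, against 0.65 over all tested members, 0.37 over all tested genes and 1.52 for Cxcl9, the tested chemokine. Among the immunity-related GTPases, which coat and rupture vacuoles that hold pathogens, Iigp1 stood at 32.5, 59.3, 26.5 and 207 CPM in G3 and at 73.4, 64.1 and 51.9 CPM in G3 PGC1aOE. Igtp stood at 10.4, 36.0, 8.88 and 122 CPM in G3 and at 30.0, 80.1 and 27.6 CPM in G3 PGC1aOE, and Irgm2 at 17.2, 39.7, 12.7 and 116 CPM in G3 and at 44.1, 45.6 and 33.1 CPM in G3 PGC1aOE. In all 3 genes G3 4 was the highest library and G3 3 the lowest, with a 13.8-fold range within G3 for Igtp. The G3 PGC1aOE libraries lay inside that range. The fold changes turned on single libraries: that of Iigp1 was -0.37 on the log2 scale with all libraries and 0.68 without G3 4, and those of Irgm2 were -0.19 and 0.82. For Igtp it was 0.05 with all libraries, 1.32 without G3 4 and -0.63 without G3 PGC1aOE 2. Igtp and Irgm2 are neighbours in the annotation, and 12.3% of the 50-base words of Igtp transcripts also occur in another gene, chiefly Irgm2. Irgm1, chosen after its values were seen, had G3 4 as its highest library too, at 61.3 CPM against 13.1 to 31.0 CPM in the other 6.

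The guanylate-binding proteins, GTPases that act on pathogen vacuoles and inflammasomes, did not share that peak in every case. Gbp2 stood at 7.48, 9.53, 9.78 and 15.1 CPM in G3 and at 8.62, 26.1 and 16.4 CPM in G3 PGC1aOE, highest in G3 PGC1aOE 2, with a log2 fold change of 0.70 (SE 0.36), or 0.26 without that library. Gbp5 stood at 3.28, 5.62, 5.74 and 8.49 CPM in G3 and at 5.12, 9.17 and 6.48 CPM in G3 PGC1aOE. The groups overlapped in part, with G3 PGC1aOE 2 the highest library and G3 1 the lowest. Gbp10 (ENSMUSG00000105096) went the other way and had the largest absolute log2 fold change among the 48 tested members. It had 18, 20, 24 and 40 counts in G3 and 6, 10 and 2 in G3 PGC1aOE, and every G3 PGC1aOE library lay below every G3 library. In CPM the means were 2.07 ± 0.688 (SD, n = 4) and 0.447 ± 0.291 (SD, n = 3). The log2 fold change was -2.19 (SE 0.54), with an unadjusted p of 0.00202 and an adjusted p of 0.847 in edgeR. Of the 50-base words in its transcripts, 82.5% occur in other genes as well, mainly Gm43302 and Gbp6, and how the authors counted reads that match several genes is not given in the sources used here. Gbp6, among the other pathway genes, was lower as well, with a log2 fold change of -0.98 (SE 0.38). Gbp6 and Gbp10 summed gave 16.0, 16.9, 11.4 and 14.1 CPM in G3 and 10.8, 6.55 and 3.02 CPM in G3 PGC1aOE, which did not overlap. Reads of Ifit3 (51.2% of words shared, with Ifit3b) and Oas1a (57.6%, mainly with Oas1g) are uncertain in the same way, and the other 46 members share under 15%.

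The chemokines, ligands of the receptor CXCR3 that draw T and NK cells, were low in most libraries. Cxcl9 had 9, 7, 10 and 58 counts in G3 and 10, 160 and 38 in G3 PGC1aOE. In CPM these were 0.821, 0.517, 0.897 and 4.36 against 0.776, 11.6 and 2.80. G3 4, G3 PGC1aOE 2 and G3 PGC1aOE 3 were the high libraries, and the groups overlapped. The log2 fold change of 1.60 (SE 0.95) became 0.11 without G3 PGC1aOE 2. Cxcl10 did not pass the filter on low counts and has no test. It had 1, 6, 2 and 9 counts in G3 and 1, 19 and 6 in G3 PGC1aOE, highest in the same libraries as Cxcl9 within each group.

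**Figure D4:**
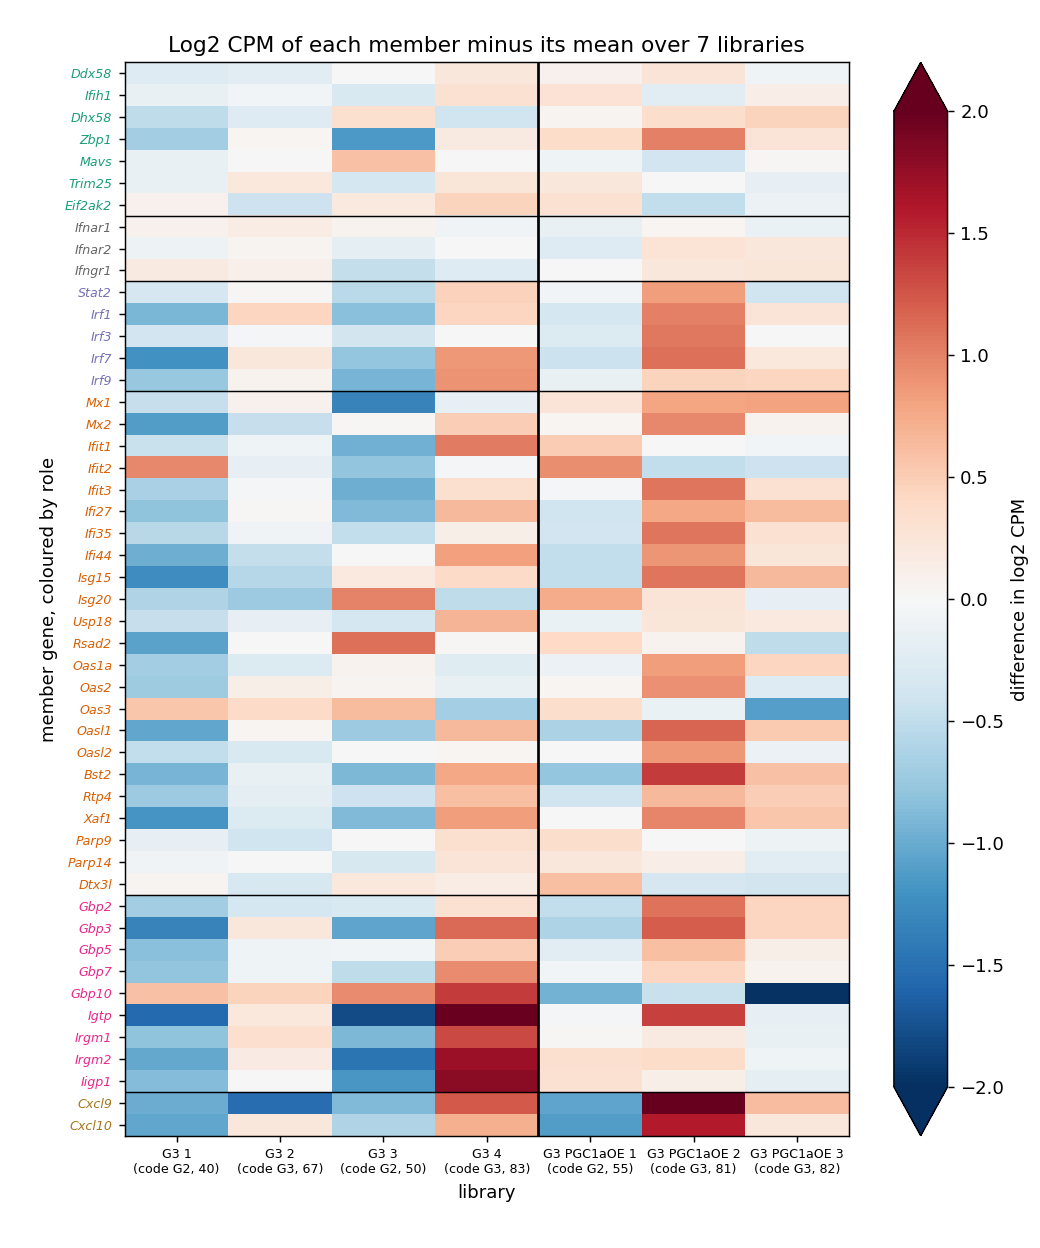
Log2 CPM of each of the 49 members (rows, names coloured by role) minus its mean over the 7 libraries (columns, with the code text and number of each), in red where above and blue where below. G3 4 and G3 PGC1aOE 2 hold the highest value of 37 of the 48 tested members, beside 34.5% of all tested genes. G3 1 and G3 3 hold the lowest value of 38, beside 29.8%.

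Across roles the highest and the lowest values gathered in few libraries, and in both labelled groups for the highest. G3 4 or G3 PGC1aOE 2 held the highest value of 37 of the 48 tested members (77.1%), against 34.5% of all tested genes. G3 1 or G3 3 held the lowest value of 38 (79.2%), against 29.8% of all genes. Both pairs of libraries were picked after the values were seen, so these shares are a description and not a test. G3 PGC1aOE 2 alone was the highest library for 24 members (50%), 13 effectors among them, beside 26.2% of all tested genes. It was the lowest library for 2 members (4.17%), beside 27.2% of all tested genes. G3 4 was the highest library for 13 members (27.1%), with 6 of the 9 GTPases, beside 8.27% of all tested genes. Mean log2 CPM of the GTPases was 2.98, 3.89, 3.10 and 5.03 in G3 and 3.61, 4.34 and 3.63 in G3 PGC1aOE. For the transcription factors it was 3.51, 4.37, 3.54 and 4.76 against 3.98, 5.12 and 4.33, and for the effectors 1.89, 2.27, 2.20 and 2.72 against 2.47, 3.02 and 2.55. In each of these roles the value of G3 4 lay above at least 1 G3 PGC1aOE library.

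**Figure D5:**
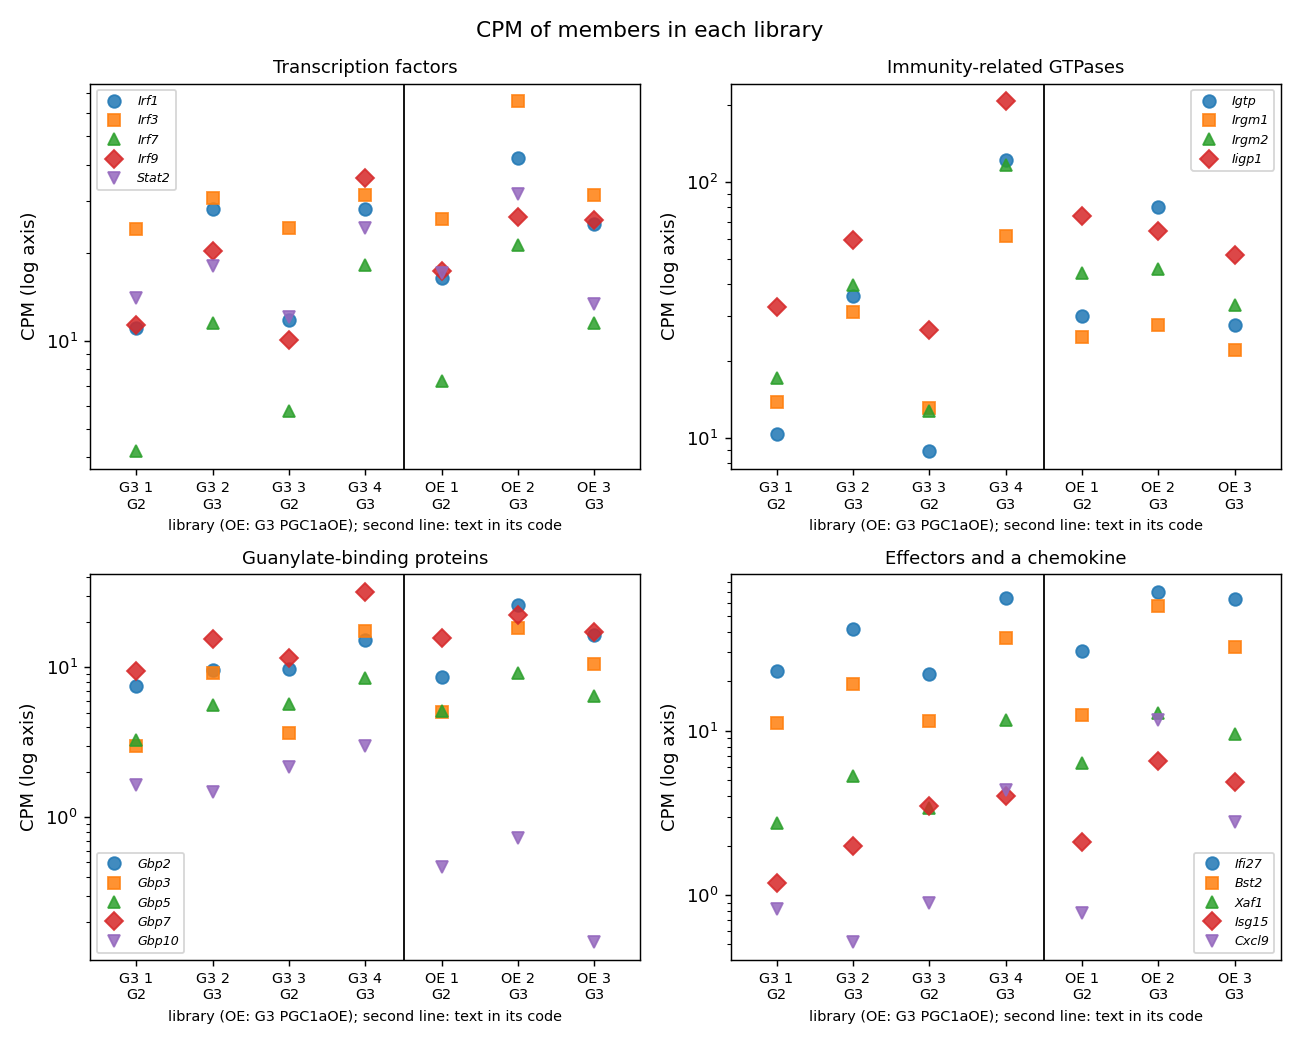
CPM on a log axis (vertical) in each of the 7 libraries (horizontal, with the text of the code on the second line) for the transcription factors, immunity-related GTPases, guanylate-binding proteins, and 4 effectors with Cxcl9 (points, 1 shape per gene). Iigp1 reaches 207 CPM in G3 4 against 26.5 to 73.4 in the other 6 libraries, whereas Bst2 peaks at 57.1 CPM in G3 PGC1aOE 2.

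Lymphocyte markers peaked in the same libraries, and the more abundant myeloid markers did not. The summed T, NK and B cell markers were 1.19, 3.18, 1.70 and 9.47 CPM in G3 and 2.48, 11.2 and 6.48 CPM in G3 PGC1aOE, so G3 4 and G3 PGC1aOE 2 were highest here too. Of those 12 markers, 8 had a count of 0 in at least 1 library, among them Cd3e, Cd3d, Cd3g, Nkg7, Klrb1c and Gzmb. Plasmacytoid dendritic cell markers summed to 2.51 to 3.56 CPM in G3 and 4.04 to 9.76 CPM in G3 PGC1aOE, highest in G3 PGC1aOE 2, but Il3ra, which other leukocytes also express, gave 9.32 of that 9.76 CPM, and the other 4 markers had a 0 in some library. Macrophage and monocyte markers, all 12 of them above 0 in each library, went from 331 to 767 CPM in G3 and from 644 to 708 CPM in G3 PGC1aOE, lowest in G3 4. Granulocyte markers were 131, 67.6, 90.1 and 13.3 CPM in G3 and 207, 11.9 and 19.8 CPM in G3 PGC1aOE, so G3 PGC1aOE 2 and G3 4 were the lowest libraries. The part of these cells in the members' values was not tested, and in whole tissue more cells of a type and more RNA per cell cannot be told apart. With G3 4 and G3 PGC1aOE 2 both left out, an alternative chosen after seeing the data, 0 members passed the threshold and the median log2 fold change of the members was 0.38.

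The labelled groups were also compared within the libraries of like code, by number and by text. Within the libraries whose code number was below 80 (3 G3 and 1 G3 PGC1aOE), the mean log2 CPM of the tested members was higher by 0.28 in G3 PGC1aOE, and within those at 80 and above (1 and 2) the difference was -0.16, against 0.32 over all. For the GTPases these values were 0.28 and -1.05, for the effectors 0.35 and 0.063 and for the transcription factors 0.17 and -0.034. Of the 48 tested members, 14 were higher in G3 PGC1aOE within both ranges and 3 were lower within both. Each range holds 1 library of one group, so no test was made within it. The split by number puts G3 2, whose code reads G3, with the libraries coded G2. Split by the code's text, chosen after seeing the data, the difference over the tested members was 0.41 within code G2 (2 G3 and 1 G3 PGC1aOE) and 0.12 within code G3 (2 and 2), so the sign of the second value depended on where the libraries were split. By text it was 0.45 and 0.16 for the transcription factors, 0.43 and 0.29 for the effectors and 0.56 and -0.48 for the GTPases. By text, 24 of the 48 tested members were higher in G3 PGC1aOE within both codes and 4 were lower within both. Neither these counts nor those by number were made over all tested genes, so they have no background share beside them.

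A comparison of the libraries coded G3 with those coded G2, with the labelled group in the fit, was chosen after seeing the data. The log2 fold change was above 0 in 39 of 48 members, with a median of 0.60, against 49.2% of all genes and a median of -0.01. In edgeR 0 members passed the adjusted threshold, while 42 genes (0.331%) did. At an unadjusted p under 0.05, 16 members were higher in the code G3 libraries, beside 9.99% of all genes, and 2 were lower, beside 9.86%, which makes 18 of 48 members beside 19.9% of all genes. All 4 code G3 libraries lay above all 3 code G2 libraries in 12 of 48 members (25.0%), beside 10.8% of all genes. Irf1, Irf3, Irf7 and Irf9 were among the 12, with log2 fold changes of 1.20, 0.58, 1.41 and 1.06. The smallest adjusted p-values in edgeR were 0.0504 each for Ifi27, at a log2 fold change of 1.18, and Gbp3, at 1.79. With DESeq2, 8 members passed (Irf1, Irf7, Irf9, Ifi27, Bst2, Xaf1, Gbp3 and Cxcl9), where 6.26% of genes did. With edgeR and 1 library left out in turn, 0 to 4 members and 0 to 177 genes passed, the most members without G3 2 and the most genes without G3 3. The code G3 libraries also had the larger total counts, 12016705 to 16056740 against 10106705 to 11576569, the higher T, NK and B cell marker sums and the lower granulocyte marker sums, 11.9 to 67.6 CPM against 90.1 to 207 CPM. The part of these in the members' values was not tested. Code text and code number cannot be told apart.

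Other genes of the pathway also leaned upward without a call. Of 92 listed genes outside the members, 80 were tested, 59 were higher and 21 lower in G3 PGC1aOE, their median log2 fold change was 0.17, and 0 passed the adjusted threshold in edgeR. At an unadjusted p under 0.05, 5 were higher, beside 3.05% of all genes, and 1 was lower, beside 1.27%. Genes of cytosolic DNA sensing and nucleic acid clearance were higher in 12 of 13, with a median of 0.22, and other interferon-inducible genes in 37 of 46, with a median of 0.32. Endosomal sensing genes were higher in 5 of 8, and receptor and JAK-STAT signalling genes in 5 of 13, with a median of -0.08. The smallest p among the 80 was that of Ifi27l2a, a relative of Ifi27, at 24.5, 23.9, 20.5 and 13.7 CPM in G3 and 25.4, 54.8 and 40.5 CPM in G3 PGC1aOE. Its groups did not overlap, and the log2 fold change was 0.96 (SE 0.29) with an unadjusted p of 0.0077. In contrast to Ifi27, Ifi27l2a was lowest in G3 4. Unc93b1, the chaperone of endosomal Toll-like receptors, stood at 22.0, 20.8, 11.9 and 20.0 CPM in G3 and at 21.9, 44.2 and 26.4 CPM in G3 PGC1aOE, which overlapped through G3 1.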

How the data were processed

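Left ventricular RNA was taken with Trizol and made into libraries with an Illumina TruSeq kit, which does not mark strand, per the labels' protocols. The authors deposited whole-number read counts per Ensembl gene and FPKM for the same genes. CASAVA, Bowtie 0.12.2 and mm9 are named in the submitters' processing notes, and the counting program is not given in the sources used here. Reads from genes that overlap, on either strand, cannot be told apart. Members were matched by symbol, found for 21748 of 22027 identifiers.

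Deposited counts were TMM-scaled and filtered with filterByExpr, which kept 12674 genes, and tested in edgeR 4.0.16 (R 4.3.3) with the quasi-likelihood F-test, 2-sided and robust, with group as the term and Benjamini-Hochberg adjustment over all tested genes at 0.05. Log2 CPM used a prior count of 2. DESeq2 1.42.0, limma 3.58.1, other scalings and filters, covariates, a replicate block and left-out libraries were alternatives. Counts were simulated for this comparison over 12674 genes in 10 draws. The test recovered 11% to 20% of 100 genes changed 2-fold and 77% to 85% of 100 changed 4-fold, with 2 to 13 false calls. The changed genes were drawn from all tested genes, whose median SD of log2 CPM was 0.37 against 0.65 for the members. Recovery among the members was not simulated. Named members are, by role, those of highest FPKM, smallest p and largest spread. Members, lists and tests were chosen with earlier results of these data known. Some listed genes are not reported here.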

Additional observations from a re-analysis of the deposited data

How the results depend on the processing

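No member passed the threshold between the labelled groups under any of the 19 alternatives fitted. The lowest adjusted p of a named member was 0.0738, for Igtp in edgeR with the replicate block. G3 4 is the only library numbered 4, so with the block it adds nothing to the fitted difference between groups. Over all genes the count of 0 became 3 with DESeq2 and 6 with the replicate block, and stayed 0 in the others. Same-numbered libraries had deviations correlated by 0.456, 0.123 and -0.086, so the numbers are not treated as pairs. Of 436 values of the 23 named and tested members, 409 kept their sign and 27, in 6 members, did not. Trim25 became -0.0062 with no filter, -0.098 with voom, and -0.078 and -0.088 on log2(FPKM + 1) and log2(FPKM + 0.1). Irgm2 became 0.048, 0.18 and 0.23 in the last 3 of these, 0.090 with the code text covariate, 0.97 with the block and 0.73 without both G3 4 and G3 PGC1aOE 2. Iigp1 became 4e-04 and 0.016 on the FPKM scales, 0.75 with the block and 0.67 without both libraries. With the code number covariate Irf7 became -0.063, Gbp5 -0.023 and Igtp -0.18, and the median of the effectors was 0.11. Leaving out 1 library gave -0.10 to 0.10 for Trim25, -0.63 to 1.32 for Igtp, -0.67 to 0.68 for Iigp1, -0.51 to 0.82 for Irgm2 and -0.084 to 0.90 for Irf7. The cause was not tested. By code text, 42 genes became 45 with RLE scaling, 763 with DESeq2 and 0 to 177 with 1 library left out, and 0 members became 2, 8 and 0 to 4.

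Counts as low as 2 per library in Mx1 and Gbp10 limit what can be seen. So does the recovery of 11% to 20% of 2-fold changes in simulated counts. That figure is for genes drawn from all those tested, which vary less than the members, and was not obtained for the members.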
